A study of Mus musculus with 22 samples.

Results

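Emx1, Emx2, Lhx2, Tbr1, Neurod6, Neurod2 and Cux2 are transcription factor genes of the forebrain and cerebral cortex, and their levels were read in every library of cerebrum, cerebellum and thymus as a measure of how much cortex each dissection held. The list was given by gene name with earlier results of these data known, applies no limit on measured values, and holds 7 of the 34585 entries in each count table. In cerebrum all 7 were found in every library, whereas in cerebellum Emx1 was near the limit of detection, Tbr1 was at 1.32% or less of its cerebral mean, Cux2 was at 30.5% to 44.4% of its cerebral mean, and Neurod2 reached or passed its cerebral mean in 4 of 6 libraries. Lhx2 and Emx2 stood apart from the other 5 genes in cerebellum, as most of their counts came from 2 of the 6 libraries. None of the 7 genes was called between Tol and WT mice in an organ where it could be tested by edgeR's quasi-likelihood test.

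The genes belong to a developmental series that is well described in mouse cortex. Emx1, Emx2 and Lhx2 are homeobox genes that pattern the dorsal telencephalon, and Lhx2 and Emx2 are also used in the developing diencephalon and midbrain roof. Neurod2 and Neurod6 are basic helix-loop-helix genes of excitatory neurons, and Neurod2 is also known in cerebellar granule cells, while Neurod6 is known in the pyramidal neurons of cortex and hippocampus. Tbr1 is a T-box gene of deep-layer cortical neurons, and Cux2 is a homeobox gene of upper-layer cortical neurons.

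Positions were taken from the GENCODE annotation of GRCm38. Emx1 (ENSMUSG00000033726) lies at chr6:85187438-85204462 on the forward strand, and Emx2 (ENSMUSG00000043969) at chr19:59458372-59465357 on the forward strand. Lhx2 (ENSMUSG00000000247) lies at chr2:38339281-38369733 and Tbr1 (ENSMUSG00000035033) at chr2:61802930-61814114, both on the forward strand. Neurod6 (ENSMUSG00000037984) lies at chr6:55677822-55681263, Neurod2 (ENSMUSG00000038255) at chr11:98325415-98329648 and Cux2 (ENSMUSG00000042589) at chr5:121856366-122050102, all on the reverse strand. Of the exon bases of Emx2, 8.79% also belong to the antisense gene Emx2os. The strand setting of the quantification is not given in the sources used here, so how far the overlap enters the Emx2 level is unknown. No stretch of 31 bases was shared between any of the 7 genes, and 0.702% or less of those of each gene occurred in another gene.

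Neurod2 and Neurod6 are shown by sequence because these paralogues had opposite orders in cerebrum and cerebellum. The 250 bases before each annotated start, from RefSeq on GRCm38.p6, are printed in the direction of transcription, at chr11:98329646-98329895 and chr6:55681264-55681513, both on the reverse strand. Capitals mark E-boxes, the letters CANNTG that basic helix-loop-helix proteins can bind, which read alike on both strands.
Neurod2: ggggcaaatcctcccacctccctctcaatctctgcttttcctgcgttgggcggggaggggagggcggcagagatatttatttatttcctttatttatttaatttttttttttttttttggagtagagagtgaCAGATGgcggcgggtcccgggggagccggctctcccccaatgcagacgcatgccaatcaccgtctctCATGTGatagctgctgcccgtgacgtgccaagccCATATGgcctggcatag
Neurod6: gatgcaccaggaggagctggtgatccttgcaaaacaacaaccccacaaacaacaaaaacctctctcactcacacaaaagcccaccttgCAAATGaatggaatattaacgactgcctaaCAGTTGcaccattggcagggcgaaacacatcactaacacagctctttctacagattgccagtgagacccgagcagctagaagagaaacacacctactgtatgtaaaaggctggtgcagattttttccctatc
The Neurod2 window held 3 E-boxes, 1 of them CAGATG, and the Neurod6 window held 2, none of them CAGATG. An E-box was present in 66.2% and CAGATG, on either strand, in 14.4% of the 32851 promoter windows of this length. The GC content was 52.8% for Neurod2 and 46.0% for Neurod6. These matches describe the letters and not binding.

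The libraries were made from poly(A) RNA of C57BL/6 mice. Tol mice are heterozygous for the Tol transgene, a long open reading frame of scrambled reporter gene fragments under the ubiquitous CAG promoter, placed 3′ of Col1a1 in embryonic stem cells, and WT mice are littermates without it. Cerebrum and thymus had 4 Tol and 4 WT libraries each, and cerebellum had 2 Tol and 4 WT libraries. The labels give no age, a library is taken as 1 mouse within its organ, and the organs may share mice. Totals ranged from 14543698 to 34776973 estimated counts per library, and levels are given as CPM, the counts brought to a common library size, scaled by TMM factors over all 22 libraries. A level under 3 counts was treated as not detectable, which is 0.0745 to 0.234 CPM and covers counting error only. The Tol transcript was at 147 to 174 CPM in Tol cerebrum, at 191 and 140 CPM in Tol cerebellum and at 19.8 to 25.4 CPM in Tol thymus, and every WT library had at most 2 counts of it.

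The marker lists of the brain regions showed that some dissections stood apart. In the library labelled cerebellum Tol 2 the summed level of 10 granule cell markers was 285 CPM, against 3094 to 7220 CPM in the other 5 cerebella, and that of 10 Purkinje cell markers was 975 CPM against 4046 to 10424 CPM. The cerebellin gene Cbln3, for example, was at 30.9 CPM there and at 727 to 1994 CPM in the others. This library goes against its label in these markers. Its 10 thalamus markers summed to 925 CPM, against 216 to 510 CPM elsewhere, with Slc17a6, a vesicular glutamate transporter, at 516 CPM and the transcription factor gene Tcf7l2 at 274 CPM. These 2 genes made up most of the sum, and the mean of log2(CPM + 1) over the 10 markers was 4.54 in Tol 2. That mean was higher in cerebellum WT 1, at 4.59. By the sum, cerebellum WT 1 was next after Tol 2, with Tcf7l2 at 136 CPM, where the other 4 cerebella had 4.32 to 6.36 CPM. For cortical neuron lists, too, the mean of log2(CPM + 1) was highest in these 2 libraries. For excitatory neurons it was 5.90 in WT 1, 5.67 in Tol 2 and 5.55 in WT 2, against 4.76 to 4.98 elsewhere. For interneurons it was 5.11 in Tol 2 and 4.86 in WT 1, against 3.89 to 4.15. By the sum, Tol 2 was not highest for these lists, with excitatory markers at 2024 CPM against 2693 CPM in WT 1. In cerebrum, 12 markers of striatal projection neurons summed to 4069 CPM in WT 3 and to 2300 CPM in Tol 4, against 266 to 496 CPM in the other 6, and 10 hippocampal markers summed to 519 CPM in WT 1, 430 CPM in WT 4 and 288 CPM in Tol 3, against 110 to 181 CPM in the other 5. Markers of the choroid plexus, 8 genes, summed to 4812 CPM in cerebellum WT 4 and 1345 CPM in WT 2, against 21.4 to 39.4 CPM in the other 4 cerebella, and the thalamus markers of WT 2 summed to 383 CPM. Their part in the cerebellar levels was not tested. Fewer cells of a type and less RNA per cell cannot be told apart in such bulk samples.

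Levels were compared between the 7 genes after division by exon length. Neurod6 had the highest mean, 35.2 CPM per kilobase, and Tbr1 came next with 31.9, but Neurod6 exceeded Tbr1 in only 4 of 8 libraries and their ranges overlapped. Neurod2 followed at 21.9 CPM per kilobase, below Tbr1 in 8 of 8 libraries. Cux2 at 13.1 and Lhx2 at 12.8 CPM per kilobase were not separated, with Cux2 higher in 5 of 8 libraries. The 2 Emx genes were lowest, Emx1 at 7.85 and Emx2 at 3.93 CPM per kilobase, with no overlap between them. In cerebellum Neurod2 had the highest mean at 27.1 CPM per kilobase and was above Cux2, at 4.89, in 5 of 6 libraries, all but Tol 2. Cux2 was above Neurod6, at 2.44, in 6 of 6 libraries, and Tbr1 at 0.263 was above Emx1 at 0.0545 in 6 of 6. Emx2 had a mean of 0.411 CPM per kilobase but was above Tbr1 in only 1 of 6 libraries, Tol 2. Neurod6 therefore stood above Neurod2 in mean level per kilobase in cerebrum and below it in cerebellum.

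**Figure D1:**
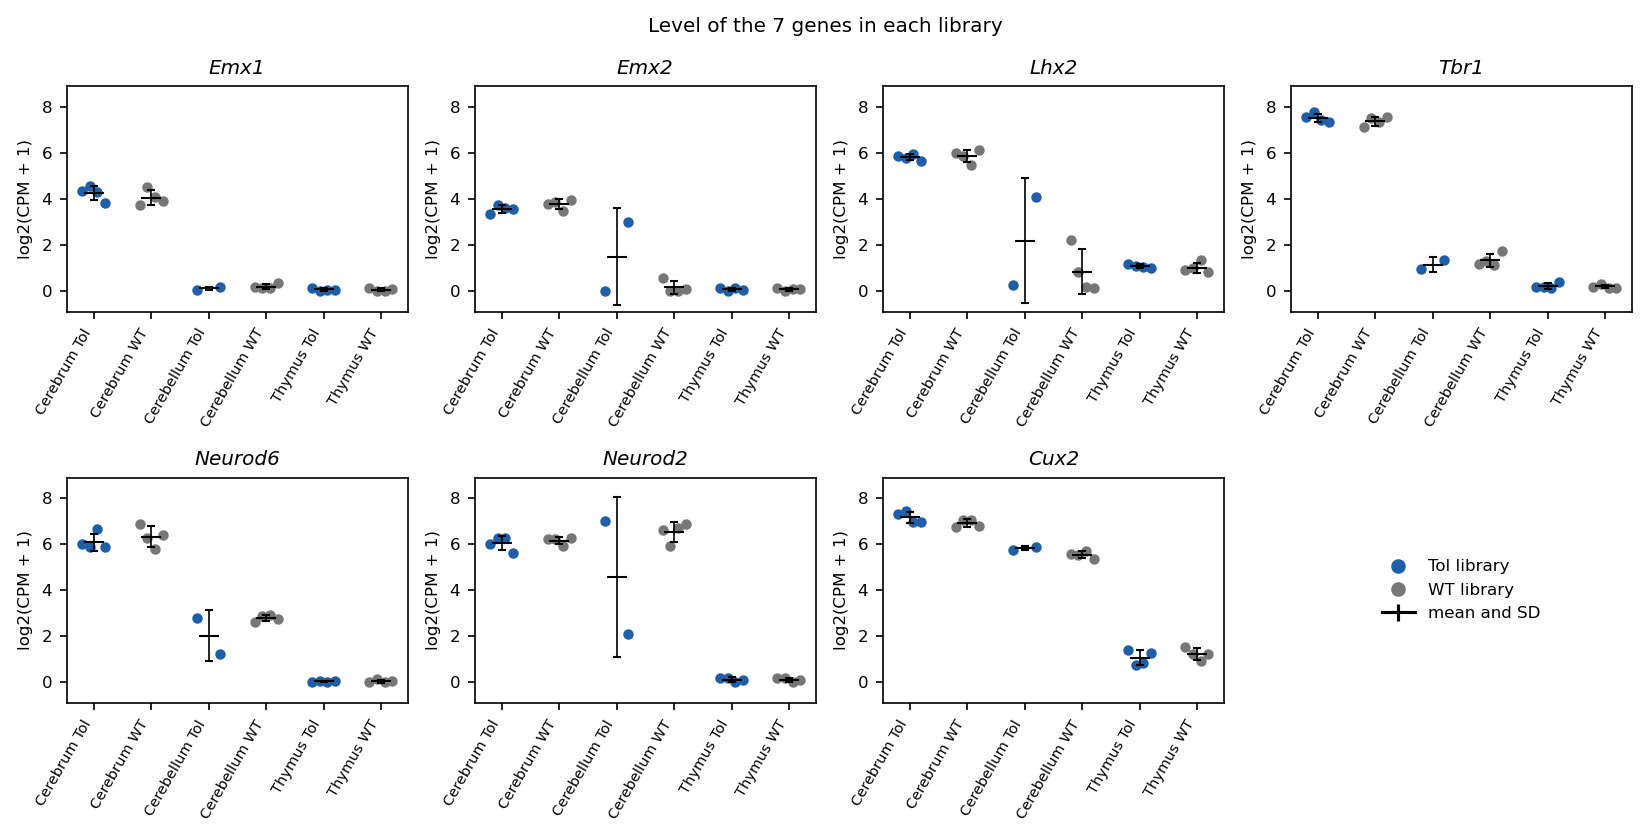
Level of each of the 7 genes as log2(CPM + 1) in the 22 libraries, grouped by organ and genotype (blue, Tol; grey, WT), with the mean and SD of each group in black. All 7 genes are high in cerebrum and near 0 or low in thymus, while in cerebellum Neurod2 and Cux2 stay high and Lhx2, Emx2 and Neurod2 part the 2 Tol libraries.

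To ask how well the genes separate cortex from another brain region, WT cerebrum was compared with WT cerebellum. Of the 7 genes, 6 were higher in cerebrum by edgeR's quasi-likelihood test at a threshold of 0.05 on the adjusted p, where 24.2% of the 15877 genes tested were higher and 25.6% lower in cerebrum. Emx1, Emx2 and Lhx2 had under 10 counts in at least 1 WT cerebellum and passed the filter through their cerebral counts. The count of 6, and the fold changes and adjusted p of these genes here and below, are therefore a description. For Tbr1 the 4 WT cerebra had 139, 182, 159 and 186 CPM and the 4 WT cerebella had 1.22, 1.44, 1.20 and 2.31 CPM. The groups did not overlap, and the log2 fold change was 6.76 (SE 0.23, edgeR adjusted p = 1.38e-06). Emx1 was at 12.1, 21.5, 15.7 and 14.0 CPM in cerebrum, and its cerebellar levels rested on 3, 2, 2 and 6 counts, with a log2 fold change of 6.81 (SE 0.34, edgeR adjusted p = 6.66e-06). Over the pooled counts of each group, Emx1 was 115-fold higher in cerebrum (95% counting interval 67.0 to 217) and Tbr1 108-fold (92.1 to 129). The counting intervals of these 2 genes overlap, so they are not ranked.

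Emx2 and Lhx2 also differed strongly between the regions, but 1 cerebellum carried most of their cerebellar counts. Emx2 was at 12.7, 13.6, 10.2 and 14.6 CPM in WT cerebrum and had 11, 0, 0 and 1 counts in WT cerebella 1 to 4, a log2 fold change of 6.61 (SE 0.71, edgeR adjusted p = 0.000125). Lhx2 was at 61.6, 57.0, 43.5 and 68.6 CPM in cerebrum and at 3.61, 0.78, 0.12 and 0.087 CPM in cerebellum, a log2 fold change of 5.66 (SE 0.81, edgeR adjusted p = 0.000549). Cerebellum WT 1, a library with raised thalamus and cortical neuron markers, was the highest of the 4 for both genes. Leaving out this highest library raises the fold changes by itself. Without it the fitted values were 9.33 for Emx2 and 7.48 for Lhx2, and both genes were still called, through their cerebral counts. The highest values of Emx1 and Tbr1 with any library left out were 7.29 and 7.04, but the genes are not ranked on these fits. The fitted value of Emx2 then rests on 1 count in cerebellum and depends on the prior count, and that of Lhx2 rests on 18, 3 and 2 counts.

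Neurod6, Cux2 and Neurod2 separated the regions less steeply. Neurod6 was at 115, 75.2, 53.7 and 84.5 CPM in WT cerebrum and at 5.16, 6.45, 6.64 and 5.85 CPM in WT cerebellum, so that every cerebellum held some Neurod6, with a log2 fold change of 3.78 (SE 0.23, edgeR adjusted p = 1.15e-05). Cux2 was at 108, 132, 133 and 110 CPM in cerebrum and at 47.2, 44.9, 51.5 and 40.4 CPM in cerebellum, with a log2 fold change of 1.40 (SE 0.11, edgeR adjusted p = 2.36e-05). Both gene ranges were apart between the regions, as those of 47.4% of all genes tested were. Neurod2 was the exception, at 73.1, 74.3, 59.7 and 76.5 CPM in cerebrum and at 97.0, 59.8, 105 and 118 CPM in cerebellum. Its log2 fold change was -0.41 (SE 0.19, edgeR adjusted p = 0.1005), with an interval of -0.83 to 0.018. Cerebellum WT 2, the lowest, had the highest sum of 8 oligodendrocyte markers, 17479 CPM against 4751 to 9600 CPM. It also had the lowest granule cell sum of the WT cerebella, 3094 CPM. Leaving out this lowest library lowers the fold change by itself, and Neurod2 was then called lower in cerebrum, at -0.56 (edgeR adjusted p = 0.00262). With each library left out in turn, the value ranged from -0.56 to -0.28, the latter without cerebellum WT 4, and the edgeR adjusted p reached 0.273.

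Read library by library, the 7 genes gave different readings of the cortex share of a cerebellar dissection. As a percentage of the mean of the 8 cerebra, Emx1 was between 0.240% and 1.53% and Tbr1 between 0.518% and 1.32% in the 6 cerebella, and neither was raised in cerebellum Tol 2, which had 0.706% for Emx1 and 0.898% for Tbr1. In the same library Emx2 stood at 58.5% and Lhx2 at 28.4% of the cerebral mean, from 171 and 398 counts. The other 5 cerebella had at most 3.92% for Emx2 and at most 6.39% for Lhx2, and both of these highest values were in WT 1. Cerebellum Tol 2 was lowest of the 6 for Neurod6, at 1.81% against 6.82% to 8.77%, and for Neurod2, at 4.81% against 87.0% to 188%. Cux2 was at 44.4% in Tol 2 and at 30.5% to 40.2% in the others. Cerebellum Tol 2 thus joined Lhx2 and Emx2 at a sizeable share of their cerebral level to Emx1 and Tbr1 at about 1% or less.

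**Figure D2:**
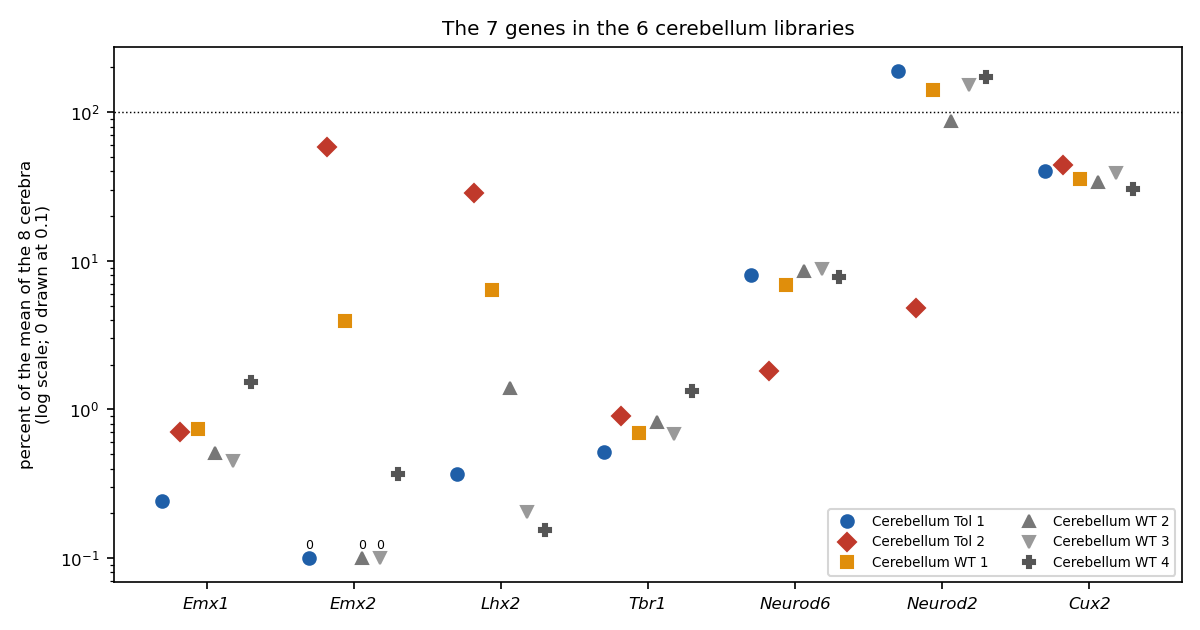
Level of each gene in the 6 cerebellum libraries as a percentage of the mean of the 8 cerebra, on a log scale, with levels of 0 drawn at 0.1 and 100% as a dotted line. Cerebellum Tol 2 (red diamonds) is highest for Emx2 at 58.5% and Lhx2 at 28.4% and lowest for Neurod6 and Neurod2, and all 6 libraries have at most 1.53% for Emx1 and Tbr1.

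Another LIM homeobox gene was read beside these. Lhx9, a relative of Lhx2, was at 95.4 CPM in cerebellum Tol 2, at 33.8 CPM in WT 1 and at 0.52 to 5.19 CPM in the other 4. Lhx9 thus shared with Lhx2 and Emx2 the order of its highest 2 libraries.

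In cerebellum, Neurod2 followed the granule cell markers, though not these alone. Neurod2 was at 129 CPM in Tol 1 and at 3.31 CPM in Tol 2, and the granule cell list summed to 7220 and 285 CPM in these libraries. In WT 2, the lowest of the other 5 for both, Neurod2 was at 59.8 CPM and the list at 3094 CPM. The order of the 6 cerebella by Neurod2 was the order by the list apart from WT 3 and WT 4, which changed places. By their sum, the 12 midbrain and hindbrain markers had the same order as Neurod2 throughout, from 245 CPM in Tol 1 to 71.0 CPM in Tol 2. Their mean of log2(CPM + 1) did not keep this order, at 1.68 in Tol 1, 1.79 in Tol 2 and 1.97, the highest, in WT 2. The Purkinje cell list was also highest in Tol 1, at 10424 CPM, and lowest in Tol 2, at 975 CPM. In cerebrum, Neurod6 was highest in the 3 libraries with the highest hippocampal sums, at 115 CPM in WT 1, 99.1 CPM in Tol 3 and 84.5 CPM in WT 4, whereas the other 5 had 53.7 to 75.2 CPM. Wfs1, a membrane protein gene of hippocampal pyramidal neurons and the highest of that list, was at 262 CPM in WT 1 and at 69.3 to 117 CPM in the other 7. The part of these cell types in the levels of Neurod2 and Neurod6 was not tested.

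**Figure D3:**
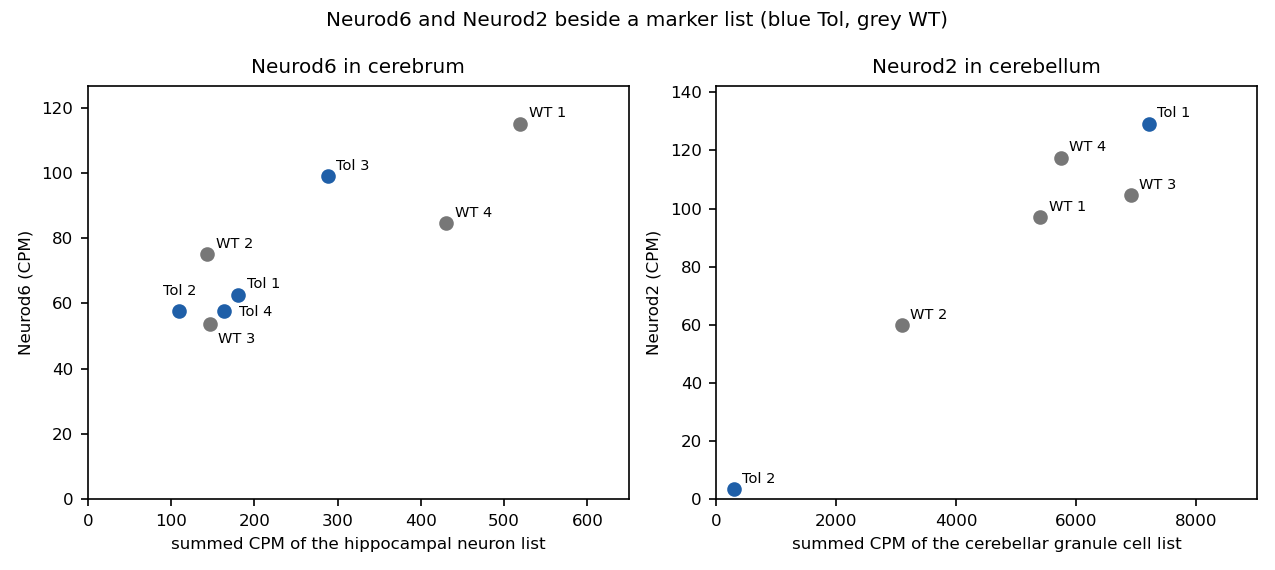
Left, Neurod6 in CPM against the summed CPM of 10 hippocampal markers in the 8 cerebra; right, Neurod2 in CPM against the summed CPM of 10 granule cell markers in the 6 cerebella (blue, Tol; grey, WT). Cerebra WT 1, Tol 3 and WT 4 lie highest on both axes at left, and cerebellum Tol 2 lies lowest on both axes at right, with Neurod2 at 3.31 CPM.

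Among the 8 cerebra the genes did not rise and fall as 1 block. Emx1, Tbr1 and Cux2 were each highest in Tol 2, at 22.5, 214 and 173 CPM, and each lowest in WT 1, at 12.1, 139 and 108 CPM. Neurod6 had the reverse place in WT 1, where it was highest, and Lhx2 was second highest there at 61.6 CPM. Lhx2 and Emx2 were both highest in WT 4, at 68.6 and 14.6 CPM. The coefficient of variation over the 8 libraries was largest for Neurod6 at 29.5% and Emx1 at 23.0%, was 17.0% for Cux2, and lay between 13.1% and 15.4% for Tbr1, Lhx2, Neurod2 and Emx2. The levels of WT 1 thus gave a low reading of cortex by Emx1, Tbr1 and Cux2 and a high one by Neurod6.

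The 2 cerebra with raised striatal markers had the lowest sums of the 7 genes, 463 CPM in Tol 4 and 475 CPM in WT 3, where the highest sum was 610 CPM in Tol 2. Neurod2 was at 48.8 CPM in Tol 4 and 59.7 CPM in WT 3, below the 64.0 to 76.8 CPM of the other 6. Lhx2 was at 49.1 and 43.5 CPM, again below the 53.5 to 68.6 CPM of the others, and Neurod6 at 57.55 and 53.7 CPM was below the others by a smaller margin, as Tol 2 had 57.60 CPM. Cux2 did not share this order, since WT 3 was the third highest of the 8 at 133 CPM. The sum of the 10 cortical excitatory neuron markers did not share it either, being lowest in WT 1 at 7463 CPM. Their sum was 7620 CPM in Tol 4 and 8326 CPM in WT 3, where the log2 ratio to the median was only -0.033. By the mean of log2(CPM + 1) these markers were lowest in Tol 4 at 8.14, but WT 3 was at 8.39, and the others at 8.28 to 8.40. Pde10a, a phosphodiesterase gene of striatal projection neurons, was at 1057 CPM in WT 3 and 681 CPM in Tol 4, against 84.3 to 144 CPM in the others. Among other forebrain transcription factors, Bcl11b, which is expressed in striatal neurons and deep-layer cortical neurons, was highest in these 2 libraries at 215 and 158 CPM. Fezf2, a gene of subcerebral projection neurons, was lowest in them at 14.9 and 13.8 CPM, and Nr2f2, a nuclear receptor gene, ranged from 7.78 CPM in WT 2 to 26.5 CPM in WT 4. The part of the striatum in the 7 levels was not tested.

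**Figure D4:**
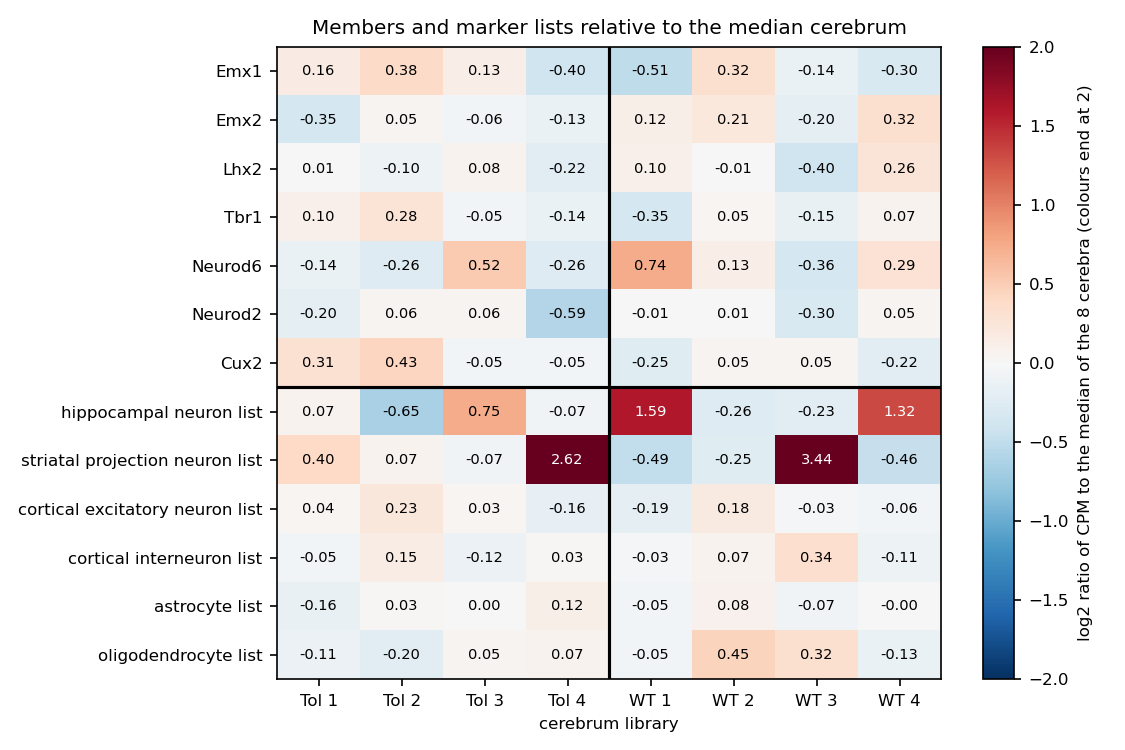
The 7 genes (above the line) and the summed levels of 6 marker lists (below it) in each cerebrum, as the log2 ratio of CPM to the median of the 8 cerebra; colours end at 2 and the numbers give the full values. The striatal list stands at 3.44 in WT 3 and 2.62 in Tol 4, where 6 of the 7 genes in WT 3 and all 7 in Tol 4 are below their median, and WT 1 has Neurod6 at 0.74 and Emx1 at -0.51.

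The 10 genes whose profile over the 8 cerebra was most like the mean profile of the 7 were sought among 1627 genes with a range over 1 log2 unit. They were Zxda, Sec1, Bub1b, Gm12328, Mrps36-ps2, Taf9, Gm21541, Adra1d, Sh2d3c and an entry without a symbol. The Pearson correlation, given as a description, was 0.960 for Zxda and 0.790 for Sh2d3c, and without Tol 4, the library farthest from the others, 0.935 and 0.719. Zxda was at 0 to 6.04 CPM in cerebrum, and none of the 10 was on the lists of cortical genes.

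To ask whether the transgene changed these genes, Tol and WT cerebra were compared. None of the 7 was called, and of 15596 genes tested 0.0% were called by edgeR, while 1506 had an unadjusted p under 0.05 and DESeq2 called 184. Cux2 had the lowest p of the 7. It had 158, 173, 123 and 124 CPM in the Tol and 108, 132, 133 and 110 CPM in WT cerebra, so the groups overlapped, and its log2 fold change was 0.26 (SE 0.13, interval -0.023 to 0.55, edgeR adjusted p = 0.542). Emx2 had 9.17, 12.1, 11.2 and 10.7 CPM in the Tol and 12.7, 13.6, 10.2 and 14.6 CPM in WT cerebra, a log2 fold change of -0.24 (SE 0.13, interval -0.54 to 0.058, edgeR adjusted p = 0.594). The other 5 had log2 fold changes from -0.24 for Neurod6 to 0.23 for Emx1, and all 7 genes overlapped between the genotypes, where 6.46% of all genes tested did not overlap.

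The intervals bound what these 8 libraries could hide. For Tbr1, at 189, 214, 171 and 161 CPM in Tol and 139, 182, 159 and 186 CPM in WT cerebra, the interval was -0.12 to 0.41. For Neurod6 it was widest, -0.79 to 0.31, with 62.7, 57.6, 99.1 and 57.5 CPM in the Tol and 115, 75.2, 53.7 and 84.5 CPM in the WT cerebra. Without Tol 4 and WT 3, the libraries with raised striatal markers, the log2 fold change was 0.37 for Cux2 (edgeR adjusted p = 0.489) and -0.33 for Emx2 (edgeR adjusted p = 0.493), and no member was called. Without Tol 3, WT 1 and WT 4, the libraries with raised hippocampal markers, Emx1 was at -0.026 and Lhx2 at 0.082, both with the sign turned, and no member was called.

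In cerebellum the comparison of genotypes turned on 1 library for most of the genes. Emx1 had too few counts to be tested, and none of the other 6 was called, as 0.0% of the 16662 genes tested were called by edgeR, with 527 at an unadjusted p under 0.05 and 10 called by DESeq2. Emx2 had 0 and 171 counts in Tol 1 and Tol 2 and 11, 0, 0 and 1 counts in the WT cerebella. Its fitted log2 fold change was 4.77 (SE 1.92, edgeR adjusted p = 0.957), and without Tol 2 it could not be tested. Lhx2 had 0.21 and 16.0 CPM in the Tol cerebella, a log2 fold change of 2.87 (SE 1.71, edgeR adjusted p = 0.957), and without Tol 2 its value was -2.45. Neurod2, with 129 and 3.31 CPM in the Tol cerebella, had a log2 fold change of -0.51 (SE 1.12), which became 0.45 without Tol 2 and -4.80 without Tol 1. Neurod6, at 6.06 and 1.37 CPM, changed from -0.69 to 0.0077 without Tol 2.

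Cux2 was the exception among the cerebellar values. It was at 53.3 and 58.8 CPM in the Tol cerebella and at 47.2, 44.9, 51.5 and 40.4 CPM in the WT cerebella, so both Tol libraries were above all 4 WT libraries. The log2 fold change was 0.31 (SE 0.13, interval -0.0056 to 0.63, edgeR adjusted p = 0.957), and without Tol 2 it was 0.21. A two-sided exact permutation test gave p = 0.133, the smallest that 2 libraries against 4 allow in this test, and 10.5% of all genes tested did not overlap between the genotypes in cerebellum. Tbr1, at 0.91 and 1.57 CPM in the Tol cerebella and 1.20 to 2.31 CPM in those of WT mice, had a log2 fold change of -0.28 (SE 0.41), which was 0.075 without Tol 1.

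**Figure D5:**
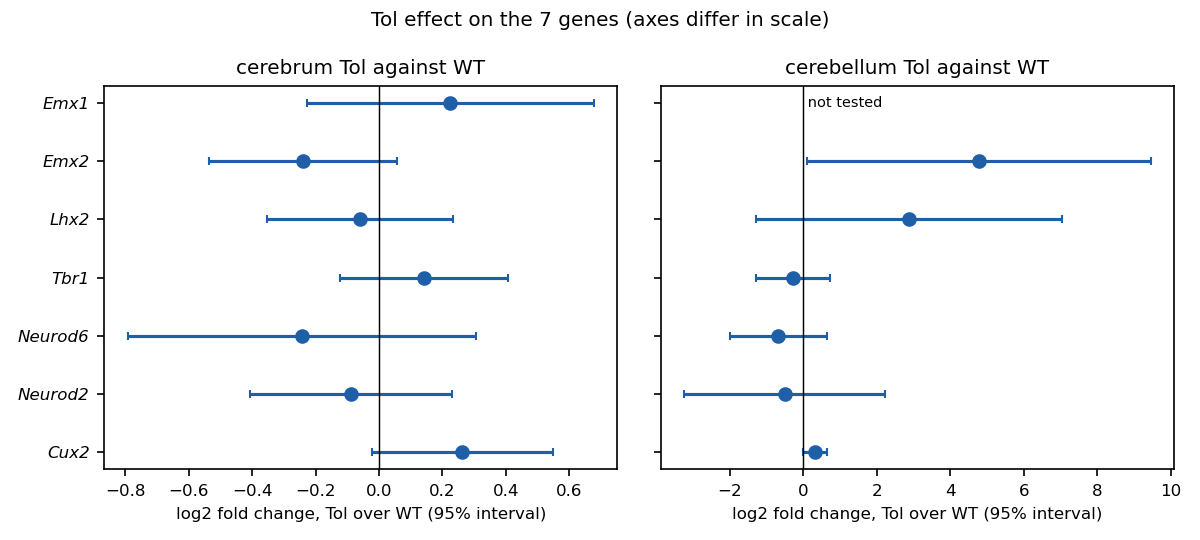
Log2 fold change of Tol over WT for each gene with its 95% interval from the edgeR fit, in cerebrum (left) and cerebellum (right); the 2 axes differ in scale, and Emx1 was not tested in cerebellum. In cerebrum all 7 values lie between -0.24 and 0.26 with intervals that include 0, and in cerebellum Emx2 and Lhx2 have the widest intervals.

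Thymus served as an organ without neurons of the cortex. Lhx2 was at 0.78 to 1.50 CPM and Cux2 at 0.69 to 1.88 CPM in the 8 thymi, and these 2 were the only members to pass the filter on low counts there. The other 5 had at most 0.30 CPM in any thymus. All 7 were higher in WT cerebrum than in WT thymus by edgeR's test, 5 of them having passed the filter only through cerebrum, in a comparison where 41.4% of the 16851 genes tested were higher in cerebrum. For the 2 members that passed the filter in thymus itself, the log2 fold change was 5.81 for Lhx2 (SE 0.21, edgeR adjusted p = 1.8e-09) and 6.43 for Cux2 (SE 0.17, edgeR adjusted p = 1.76e-10). Neurod6 had 3 counts over the 4 WT thymi, each library being under the limit of detection, and the ratio of pooled counts was 2625 with a counting interval of 898 to 12732. Neither Lhx2, with a log2 fold change of 0.12 (SE 0.24, edgeR adjusted p = 0.794), nor Cux2, with -0.23 (SE 0.32, edgeR adjusted p = 0.692), was called between Tol and WT thymi, where 0.0985% of 16248 genes were.

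A list of 36 other forebrain and cortical transcription factors gave the wider setting. Between WT cerebrum and WT cerebellum, 34 were tested, and 18 were higher and 9 lower in cerebrum, where 24.2% of all genes tested were higher and 25.6% lower, with a median log2 fold change of 0.90 against -0.037 over all genes tested. Between Tol and WT, 0 were called by edgeR of 32 tested in cerebrum, 33 in cerebellum and 24 in thymus, and 5, 1 and 4 of them had an unadjusted p under 0.05, as did 9.66%, 3.16% and 24.4% of all genes tested in these organs. Bcl11b and Fezf2 from this list were found in thymus too, with means of 622 and 12.8 CPM over the 8 thymi, so not all genes named for the forebrain were low there as the 7 were.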

How the data were processed

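RNA of cerebrum, cerebellum and thymus was sequenced from stranded poly(A) libraries. With Salmon 0.14.1, the authors estimated abundance against GRCm38 transcripts, to which the Tol sequence had been added. The deposited values are estimated counts, also called expected counts, for each gene, whole and not normalized, so they were used without rounding. The tables name the Tol columns by another abbreviation, which was matched to the labels by organ and number. The 7 genes and all lists were chosen with earlier results of these data known.

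Each comparison was fitted on its 2 groups alone in R 4.3.3 with edgeR 4.0.16 (TMM, filterByExpr, quasi-likelihood F test, Benjamini-Hochberg adjustment over all genes tested, called at adjusted p under 0.05), with DESeq2 1.42.0 as an alternative, and the fits were tested on simulated data. Exact permutation tests used scipy 1.17.1 on log2(CPM + 1). Each library was taken as 1 mouse within its organ, as the study speaks of mice. The paper gives 4 Tol and 4 WT mice for its expression data, so the organs may share mice. The labels do not name the mouse, and organs were compared without pairing. Of the entries, 34465 matched a GENCODE symbol. Genes named beside the 7 were the Tol transcript, the 4 other forebrain factors with the widest range over the cerebra, the 4 with the lowest p where any was called between Tol and WT, up to 3 of the most abundant genes of each marker list in the tissue discussed, and the 10 genes most like the 7 over the cerebra. Alternatives were other filters, scalings, pseudocounts and fits, a replicate block, and leaving out libraries or members; 3 that leave out 2 or 3 libraries together were added after the data were seen.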

Additional observations from a re-analysis of the deposited data

Results flagged for a closer look

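In groups of 4 or more libraries, the highest or lowest value of log2(CPM + 1) was set against the range of its group by Dixon's criterion. Of 40 groups tested, 2 had a value past the limit, and chance alone gives 2.0. Neurod6 in cerebrum Tol 3 was at 6.65, above the next Tol cerebrum at 5.99, and this library was also the third highest for the hippocampal markers, at 288 CPM. Emx2 in cerebellum WT 1 was at 0.55, where the next WT cerebellum was at 0.062, from 11 counts against 1.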

How the results depend on the processing

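No member was called between Tol and WT under any alternative run in cerebrum, cerebellum or thymus. Between WT cerebrum and WT cerebellum 6 members were called, 6 to 7 with a library left out, and 3 of the 4 that remain with at least 10 counts in every library; against thymus 7 were called, 7 with any library left out, and 2 of the 2 that pass that filter. Over all genes, Tol against WT gave 184 calls in cerebrum with DESeq2, 25 with all 22 libraries in one fit, 2 without Tol 4 and WT 3, 1 without Tol 3, WT 1 and WT 4, and 0 to 7 with a library left out; 10 in cerebellum with DESeq2 and 0 to 2 with a library left out, the 2 from the fit without Tol 1, where the lone Tol library is assumed to vary like the WT libraries; and in thymus, against 16, 1266 with DESeq2, 130 without a filter, 85 with at least 10 counts, 29 in one fit and 0 to 2978 with a library left out, highest without Tol 1. The cause was not tested.

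Signs turned for Emx1 (-0.026) and Lhx2 (0.082) in cerebrum without Tol 3, WT 1 and WT 4. With a library left out, cerebral Lhx2 ranged from -0.18 to 0.035, positive without WT 4, and Neurod2 from -0.16 to 0.030, positive without Tol 4. In cerebellum, Lhx2 ranged from -2.45, without Tol 2, to 4.63, Tbr1 from -0.76 to 0.075, positive without Tol 1, Neurod6 from -2.09 to 0.0077 and Neurod2 from -4.80 to 0.45, both positive without Tol 2. In thymus, Lhx2 ranged from -0.015, without WT 4, to 0.36. The mean of log2(CPM + 1) over the members differed by 3.30 between WT cerebrum and cerebellum, by 4.33 with a pseudocount of 0.1, 3.14 scaled by the total count, 3.01 without Lhx2, 2.84 without Tbr1, 3.91 without Neurod2 and 3.62 without Cux2. Between Tol and WT cerebella it was -0.23 without Emx2 or Lhx2 and 0.32 without Neurod2. Low counts limit Emx1, Emx2 and Lhx2 in cerebellum.

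Tol and WT libraries share replicate numbers, but the deviations of same-numbered cerebra correlated at 0.22, 0.34, -0.30 and 0.020, those of cerebella at -0.18 and 0.62, those of thymi at -0.11 to 0.051, and those of WT cerebrum and WT cerebellum at 0.0033 to 0.11, so the numbers were not taken to pair the mice. Between WT cerebrum and WT cerebellum, the same number gave the highest correlation for numbers 1, 3 and 4. Between WT cerebrum and WT thymus it did so for numbers 3 and 4, at 0.041 and 0.057. The same number also gave the highest correlation between Tol and WT for cerebra 1 and 2 and for cerebella 2, which are different mice. Such matches therefore cannot tell whether the organs share mice. The main fits between organs do not take sharing into account. With the number as a replicate block, edgeR called 5 genes between Tol and WT thymi and 0 between the cerebra or the cerebella, and 7392 between WT cerebrum and WT cerebellum, with 6 members.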
